A study of Homo sapiens with 13 samples.

Results

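The genes described here are 40 components of the Wnt/beta-catenin pathway: receptors, ligand secretion factors, Dishevelled proteins, the complex that destroys beta-catenin, beta-catenin itself and the nuclear factors that act with it. They were chosen by name as a fixed list, with earlier results of these data known. Of the 40, 37 were measured, of 18404 genes in all. PORCN had no row named by its symbol alone, and the rows of CSNK1E and CTNND1 each carried a further symbol, so these 3 were not analysed here. The cells were SW480, an established human colon cancer line that carries truncated APC. They were kept for 6 h in 1 of 4 conditions before lysis: the solvent DMSO at 0.1 percent (4 arrays), DFO (deferoxamine) at 100 mM (4 arrays), Deferasirox at 50 mM (3 arrays) or OICR623, a compound known here by its code name, at 10 mM (2 arrays). DFO and Deferasirox are iron chelators, and the doses are given in the unit of the labels, which would be high for cultured cells. Replicates come from separate experiments, according to the series' design text.

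In the canonical pathway, secreted Wnt proteins bind a Frizzled receptor and the co-receptor LRP5 or LRP6. Dishevelled is recruited, and the complex of APC, AXIN, GSK3 and casein kinase that marks beta-catenin for destruction is held back. Beta-catenin then enters the nucleus, where it replaces TLE repressors on TCF factors and brings in BCL9 and PYGO proteins. In the gut this pathway keeps the stem cells of the crypt, and in most colon cancers a defect in APC leaves it switched on without ligand. The question asked of these data was whether RNA of the machinery itself differed under the compounds, beside target genes of the pathway of which some fell.

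Total RNA was hybridised to Affymetrix Human Gene 1.0 ST arrays, and the deposited values are log2 signals. The array medians lay at 3 levels: a high level with DMSO 1 and DFO 1 (7.17 to 7.19), a middle level with 8 arrays (6.64 to 6.69) and a low level with DMSO 4, DFO 4 and Deferasirox 3 (6.52 to 6.55). All differences below come from a limma fit over the 13 arrays with the level as a block, and a gene is said to be called, or to have risen or fallen, where its p, adjusted by the Benjamini-Hochberg method for the 18404 genes tested, was under 0.05. DMSO 1 and DFO 1 held exactly the same value in 8530 of the 32321 rows (26.4%), against at most 0.331% for any other pair of arrays. Those rows include 7 of the measured members (FZD3, FZD4, FZD9, WLS, DVL1, APC and CTNNB1), for which this pair gives a difference of 0. Its cause was not tested, and the counts are also given without these arrays. The epithelial list held 10 measured markers, of which some are given here as examples. Over the 13 arrays KRT8, KRT18 and EPCAM had signals of 12.53 to 13.24, 12.80 to 13.45 and 9.02 to 10.92. CDH1 and KRT20 had signals of 4.77 to 6.72 and 4.78 to 6.18. The lowest marker of the list was another gene, at 4.24 in DMSO and 4.21 in DFO in the middle level. The median marker stood at 8.29 in DMSO in that level. Without detection calls, the presence of CDH1, KRT20 and the lowest marker could not be read from these values. Of the measured markers of fibroblasts, endothelium and leukocytes (8, 6 and 5), 0 were called under any compound. Of all genes, 4.6%, 5.84% and 0.734% were called under DFO, Deferasirox and OICR623. The cells were lysed in bulk, so fewer cells of a kind and less RNA per cell cannot be told apart.

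Most of the machinery did not pass the test under any compound, and 5 of the 37 members did under at least 1. Under DFO 4 members were called (10.8%, beside 4.6% of all genes): FZD10 and TCF7L1 rose, and AMER1 and TLE3 fell. Under Deferasirox 5 were called (13.5%, beside 5.84% of all genes), namely those 4 and BCL9, which fell. Under OICR623 0 were called by limma (beside 0.734% of all genes), and 5 had an unadjusted p under 0.05 (13.5%, beside 10.7% of all genes). The median difference of the 37 members was -0.01 under DFO, -0.01 under Deferasirox and -0.00 under OICR623, and that of all genes was 0.00 under each. All 3 comparisons use the same DMSO arrays and are not independent of each other. Without DMSO 1 and DFO 1, the counts were 4 under DFO (beside 4.18% of all genes), 5 under Deferasirox (5.36%) and 1 under OICR623 (0.94%). In the 4 under DFO BCL9 then stood in place of TLE3, and the 1 under OICR623 was AMER1. Without the 3 arrays of the low level, FZD10 was the 1 call under DFO (beside 1.85% of all genes), FZD10 and BCL9 were the 2 under Deferasirox (2.02%), and 0 were called under OICR623 (0.391%). With the replicate number as a block in the DFO and DMSO arrays, taken as pairs, 2 members were called under DFO (beside 3.36% of all genes), FZD10 and AMER1. Without any block for the level, 0 members were called under each compound. Of all genes, 0.245%, 0.234% and 0.038% were then called under DFO, Deferasirox and OICR623.

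**Figure D1:**
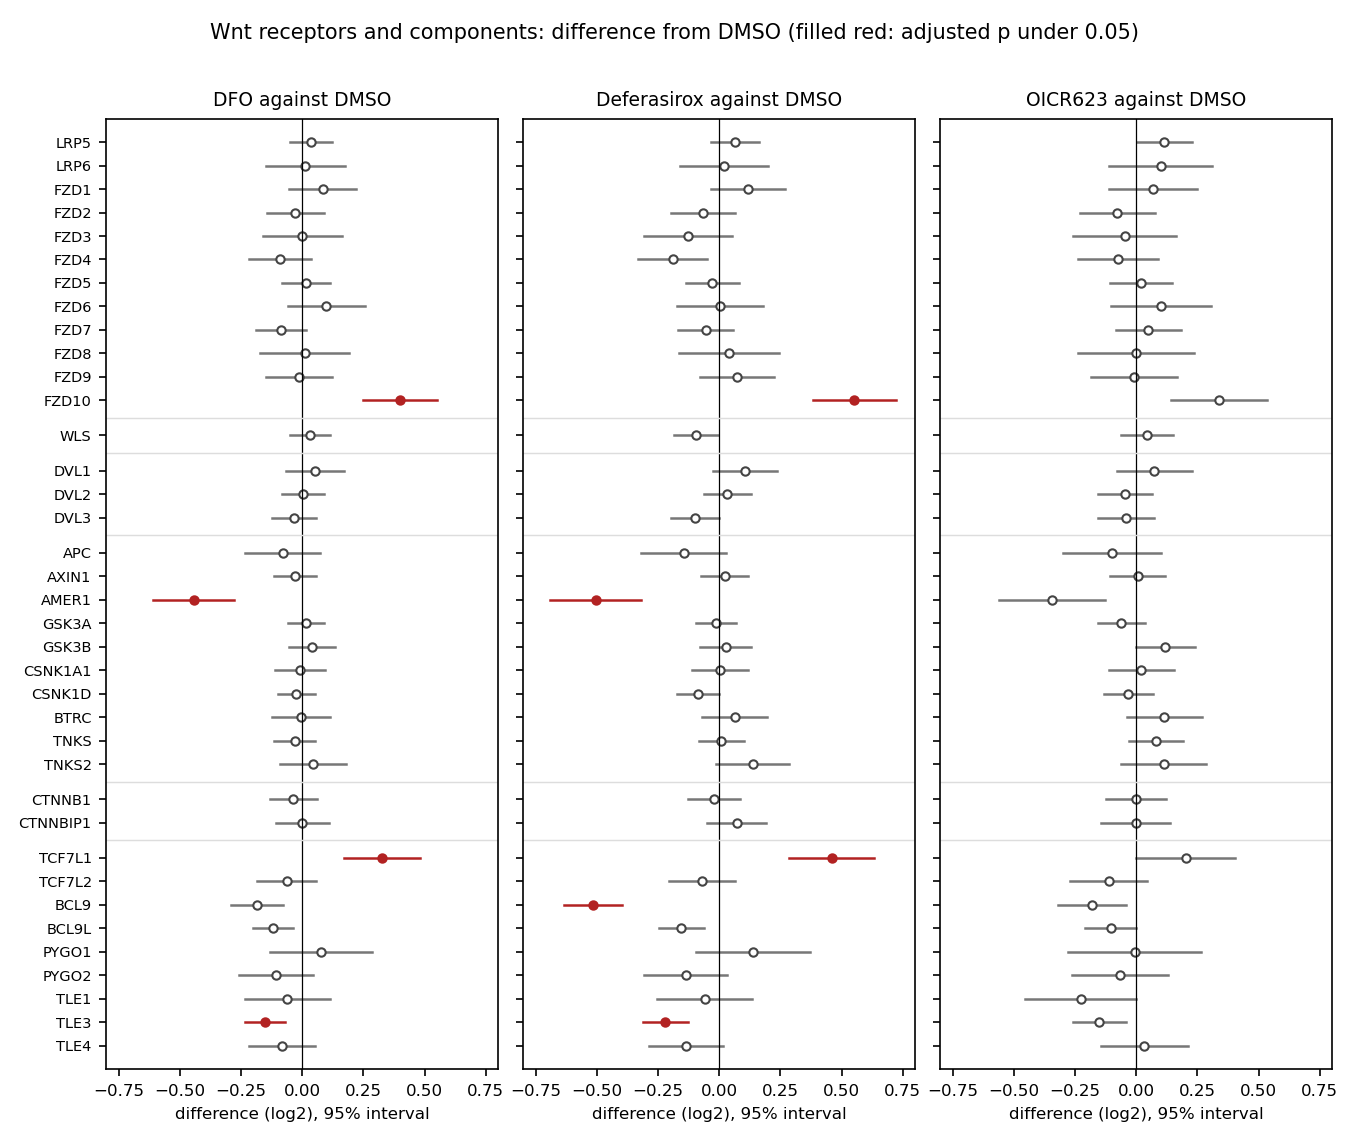
Difference from DMSO on the log2 scale (horizontal axis) for each of the 37 measured members (vertical axis, grouped by role) under DFO, Deferasirox and OICR623. Points are limma estimates, bars are 95% intervals and filled red points passed an adjusted p of 0.05: 4, 5 and 0 members, with most of the others close to 0.

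**Figure D2:**
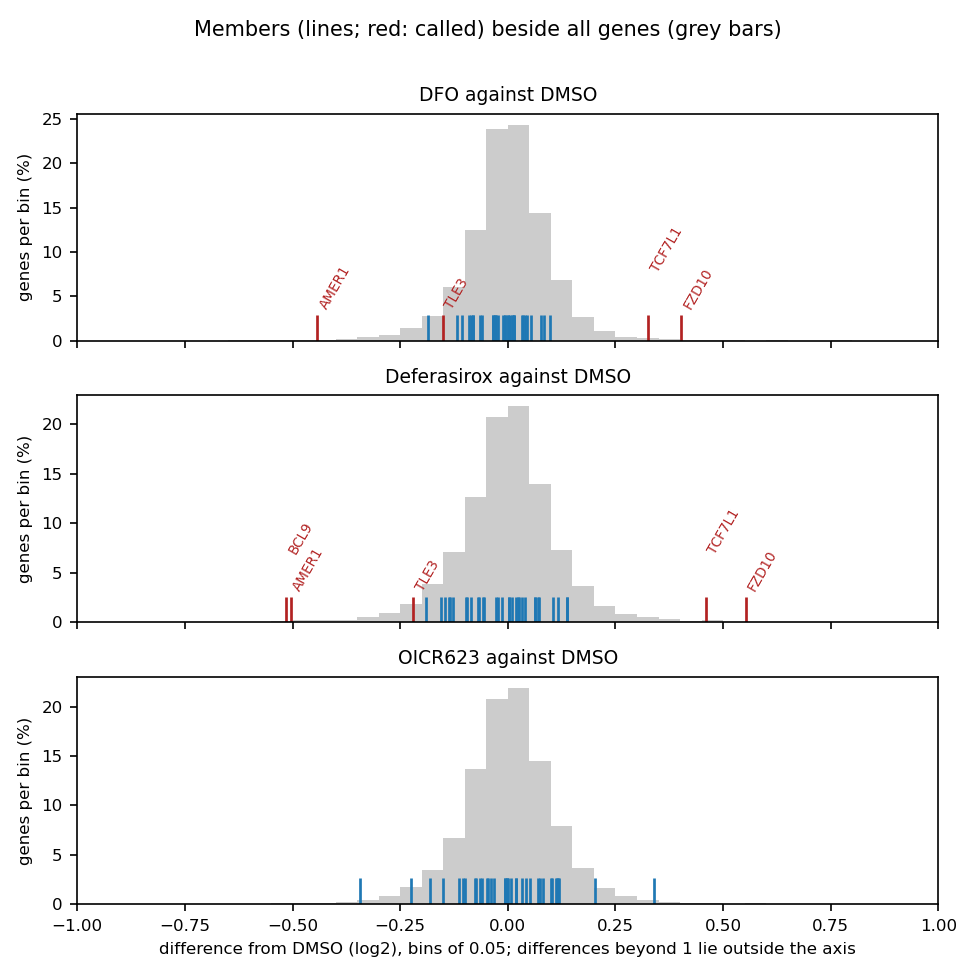
Distribution of the difference from DMSO over all 18404 genes (grey bars, percent of genes per bin of 0.05 log2) with the 37 members as vertical lines, red where called. The members' medians of -0.01, -0.01 and -0.00 lie close to the 0.00 of all genes.

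Promoter sequence is shown for the called members, the ones that moved. Iron is a cofactor of the enzymes that mark hypoxia-inducible factors for destruction, and these factors bind a core of ACGTG or GCGTG. RefSeq (GRCh38.p14) had a promoter for 29 of the 40 members, and FZD10 had no entry. The 250 bases before the annotated start are printed 5′ to 3′ on the gene's strand, with capitals for each match to ACGTG or GCGTG on either strand. For TLE3 the first of 3 entries is shown.
TCF7L1, chr2:85133142-85133391, plus strand: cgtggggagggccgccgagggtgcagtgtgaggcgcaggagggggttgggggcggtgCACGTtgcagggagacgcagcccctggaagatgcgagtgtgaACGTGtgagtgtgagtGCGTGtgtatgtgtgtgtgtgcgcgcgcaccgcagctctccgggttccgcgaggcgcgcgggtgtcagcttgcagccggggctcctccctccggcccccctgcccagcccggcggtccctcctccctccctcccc
AMER1, chrX:64205709-64205958, minus strand: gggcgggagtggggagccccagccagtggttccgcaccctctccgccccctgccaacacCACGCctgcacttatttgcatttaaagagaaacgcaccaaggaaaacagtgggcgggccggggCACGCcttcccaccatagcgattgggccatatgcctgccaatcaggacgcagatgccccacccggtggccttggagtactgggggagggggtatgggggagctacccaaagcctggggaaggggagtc
BCL9, chr1:147541251-147541500, plus strand: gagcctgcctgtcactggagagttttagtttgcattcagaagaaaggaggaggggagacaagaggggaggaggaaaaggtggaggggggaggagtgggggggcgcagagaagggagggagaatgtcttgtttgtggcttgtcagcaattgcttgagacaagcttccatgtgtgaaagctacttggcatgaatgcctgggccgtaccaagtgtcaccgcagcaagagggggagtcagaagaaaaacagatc
TLE3, chr15:70097918-70098167, minus strand: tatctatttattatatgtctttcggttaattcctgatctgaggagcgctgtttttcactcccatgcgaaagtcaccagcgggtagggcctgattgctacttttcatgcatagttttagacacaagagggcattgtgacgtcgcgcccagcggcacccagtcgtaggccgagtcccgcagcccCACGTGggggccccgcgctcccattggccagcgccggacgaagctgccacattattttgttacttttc
TCF7L1 held 2 matches to ACGTG and 1 to GCGTG, and AMER1 held 2 to GCGTG. The 2 matches of TLE3 to ACGTG are the overlapping strands of 1 palindrome, CACGTG. In BCL9 0 matches were found. Either motif occurred in 19 of the 29 member promoters (65.5%) and in 43.1% of the 27305 promoters of the table. ACGTG alone occurred in 7 members (24.1%, beside 18.7%) and GCGTG in 15 (51.7%, beside 31.9%). CTTTGA, the core read by TCF factors, occurred in 1 member (3.45%, beside 11.4%). The shares were not adjusted for base composition, and the printed promoters hold 53.6% to 72% G or C. A match is a description of these letters only.

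Among the receptors, FZD10 was the called member. Frizzled proteins are the cell surface receptors to which Wnt ligands bind, and FZD10 is 1 of 10 in the family. In the middle level its signal was 7.21 and 7.26 in DMSO, 7.69 and 7.88 in DFO, 7.84 and 7.97 in Deferasirox, and 7.64 and 7.69 in OICR623. In the low level it was 7.58 in DMSO, 7.80 in DFO and 7.95 in Deferasirox, and in the high level 7.92 in DMSO and 8.23 in DFO. Every treated array lay above the DMSO arrays of its own level, and across levels the groups overlapped. FZD10 was 0.40 higher on the log2 scale under DFO (SE 0.07, adjusted p 0.0062) and 0.55 higher under Deferasirox (SE 0.08, adjusted p 0.0015). Under OICR623 the difference was 0.34 (SE 0.09), which did not pass (adjusted p 0.149). Both calls held in each of the 13 fits that left out 1 array.

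The other 11 receptors and co-receptors were not called. Their differences ran from -0.09 to 0.10 under DFO and from -0.19 to 0.12 under Deferasirox, and FZD4 gave the lowest value under each of these 2 compounds. LRP5, a co-receptor, differed by 0.04 under DFO (95% interval -0.05 to 0.12), by 0.06 under Deferasirox (-0.03 to 0.16) and by 0.11 under OICR623 (0.00 to 0.23). Its partner LRP6 gave 0.01 (-0.15 to 0.17), 0.02 (-0.16 to 0.20) and 0.10 (-0.11 to 0.31) in the same order. FZD7, another Frizzled receptor, gave -0.08 (-0.19 to 0.02), -0.06 (-0.17 to 0.06) and 0.05 (-0.08 to 0.18). These intervals exclude a change of 0.5 in either direction for each of the 3 genes.

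WLS, the carrier that brings Wnt proteins to the cell surface, differed by 0.03, -0.09 and 0.04 under DFO, Deferasirox and OICR623 and was not called. The 3 Dishevelled genes, whose proteins pass the signal from the receptor to the destruction complex, were not called either. DVL2 gave 0.01 (95% interval -0.08 to 0.09), 0.03 (-0.06 to 0.13) and -0.05 (-0.16 to 0.07). DVL1 and DVL3 lay between -0.10 and 0.10 in the 3 comparisons.

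In the destruction complex and its regulators 1 of 10 measured members was called. AMER1 (also known as WTX) binds APC at the cell membrane and takes part in the breakdown of beta-catenin. In the middle level its signal was 7.75 and 7.77 in DMSO, 7.19 and 7.23 in DFO, 7.10 and 7.35 in Deferasirox, and 7.31 and 7.43 in OICR623. The low level gave 7.38 in DMSO, 6.84 in DFO and 6.78 in Deferasirox, and the high level 8.26 in DMSO and 8.11 in DFO. Again every treated array lay on 1 side, here below, of the DMSO arrays of its level. AMER1 fell by 0.44 under DFO (SE 0.07, adjusted p 0.0060) and by 0.50 under Deferasirox (SE 0.08, adjusted p 0.0048). The OICR623 difference was -0.34 (SE 0.10, adjusted p 0.19). Without DMSO 1 and DFO 1 it was -0.39 and passed (adjusted p 0.047). The DFO and Deferasirox calls of AMER1 were both lost without the arrays of the low level (adjusted p 0.073 and 0.080). The Deferasirox call was also lost with replicate and level blocks together (-0.38, adjusted p 0.178). That fit set Deferasirox 1 and 3 in a block with DMSO arrays of other levels, so it does not pair arrays. The step between the arrays of the high level, -0.15, was smaller than that of the middle (-0.55) and low level (-0.53).

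The scaffold and kinase genes of the complex did not pass. APC, the scaffold that is truncated in this line, differed by -0.08 under DFO (95% interval -0.23 to 0.07), by -0.15 under Deferasirox (-0.32 to 0.03) and by -0.10 under OICR623 (-0.30 to 0.10). AXIN1, the scaffold that holds the kinases, gave -0.03 (-0.11 to 0.06), 0.02 (-0.07 to 0.12) and 0.01 (-0.11 to 0.12). GSK3B, the kinase that phosphorylates beta-catenin, gave 0.04 (-0.05 to 0.13), 0.03 (-0.08 to 0.13) and 0.12 (-0.00 to 0.24). The other members, which are GSK3A, the casein kinases CSNK1A1 and CSNK1D, the ubiquitin ligase subunit BTRC and the AXIN-modifying tankyrases TNKS and TNKS2, lay between -0.09 and 0.14. TNKS2 gave the highest of these (0.14 under Deferasirox, 95% interval -0.01 to 0.29).

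CTNNB1 encodes beta-catenin, the signal carrier of the pathway. Its signal in the middle level was 12.86 and 12.79 in DMSO, 12.86 and 12.76 in DFO, 12.85 and 12.77 in Deferasirox, and 12.89 and 12.78 in OICR623. In the low level it was 12.56 in DMSO, 12.45 in DFO and 12.50 in Deferasirox, and in the high level it was 13.52 in both arrays, 1 of the identical values. Within the middle level the ranges of all 4 groups overlapped. The differences were -0.04 under DFO (95% interval -0.13 to 0.06), -0.02 under Deferasirox (-0.13 to 0.08) and -0.00 under OICR623 (-0.12 to 0.12). CTNNBIP1, whose protein keeps beta-catenin from binding TCF factors, differed by 0.00, 0.07 and -0.00. These are RNA values and say nothing of the amount or place of the protein, which is set largely by its breakdown.

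The nuclear factors held 3 of the 5 called members. TCF7L1 (TCF3) binds the same DNA sites as the other TCF factors and acts largely as a repressor. Its signal in the middle level was 7.91 and 7.82 in DMSO, 8.16 and 8.27 in DFO, 8.26 and 8.32 in Deferasirox, and 8.10 and 8.03 in OICR623. In the low level it was 7.67 in DMSO, 8.23 in DFO and 8.34 in Deferasirox, while the high level gave 8.83 in DMSO and 8.88 in DFO. The treated arrays lay above DMSO in every level, but by 0.05 in the high level against 0.35 in the middle and 0.56 in the low level under DFO. TCF7L1 was 0.33 higher under DFO (SE 0.07, adjusted p 0.024) and 0.46 higher under Deferasirox (SE 0.08, adjusted p 0.0058). OICR623 gave 0.20 (SE 0.09, adjusted p 0.47). The DFO call was lost with the replicate number as a block (adjusted p 0.11), and when DFO 2, DFO 3, DFO 4, DMSO 3 or DMSO 4 was left out, with adjusted p up to 0.111. Both calls of TCF7L1 were lost without the low level (adjusted p 0.156 and 0.062). TCF7L2 (TCF4), the main partner of beta-catenin in the gut, was not called, at -0.06 (95% interval -0.18 to 0.06), -0.07 (-0.20 to 0.07) and -0.11 (-0.27 to 0.05).

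BCL9 links beta-catenin to the PYGO proteins that support transcription. Its signal in the middle level was 8.65 and 8.62 in DMSO, 8.48 and 8.40 in DFO, 8.11 and 8.19 in Deferasirox, and 8.50 and 8.43 in OICR623. In the low level it was 8.49, 8.18 and 7.85 in DMSO, DFO and Deferasirox, and in the high level 9.33 in DMSO and 9.28 in DFO. The Deferasirox arrays were the lowest in both levels that held them. BCL9 fell by 0.52 under Deferasirox (SE 0.05, adjusted p 0.00023). DFO gave -0.19 (SE 0.05), which did not pass (adjusted p 0.057) but did without DMSO 1 and DFO 1 (-0.23, adjusted p 0.032). OICR623 gave -0.18 (SE 0.06, adjusted p 0.31). Its relative BCL9L differed by -0.12, -0.15 and -0.10, with adjusted p of 0.12, 0.056 and 0.475.

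TLE3 belongs to the Groucho co-repressors, which sit on TCF factors in the absence of beta-catenin. Its signal in the middle level was 11.78 and 11.79 in DMSO, 11.66 and 11.56 in DFO, 11.59 and 11.56 in Deferasirox, and 11.66 and 11.60 in OICR623. The low level gave 11.29, 11.16 and 11.04 in DMSO, DFO and Deferasirox, and the high level 11.94 in DMSO and 11.80 in DFO. The differences were small and of 1 sign in every level, from -0.13 to -0.25. TLE3 fell by 0.15 under DFO (SE 0.04, adjusted p 0.046) and by 0.22 under Deferasirox (SE 0.04, adjusted p 0.011), and OICR623 gave -0.15 (SE 0.05, adjusted p 0.26). The DFO call was lost with the replicate number as a block (adjusted p 0.091) and in each of the 13 fits that left out 1 array (adjusted p 0.050 to 0.151). The Deferasirox call was lost without Deferasirox 3 (adjusted p 0.081) or the whole low level (0.131). It was also lost on the 2 groups alone and on the middle level alone. Of the 13 alternatives other than leaving out 1 array, it held in 6. TLE1 and TLE4, of the same family, gave -0.06 and -0.08 under DFO, -0.06 and -0.13 under Deferasirox, and -0.23 (unadjusted p 0.050) and 0.03 under OICR623. Neither was called, nor were PYGO1 and PYGO2.

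**Figure D3:**
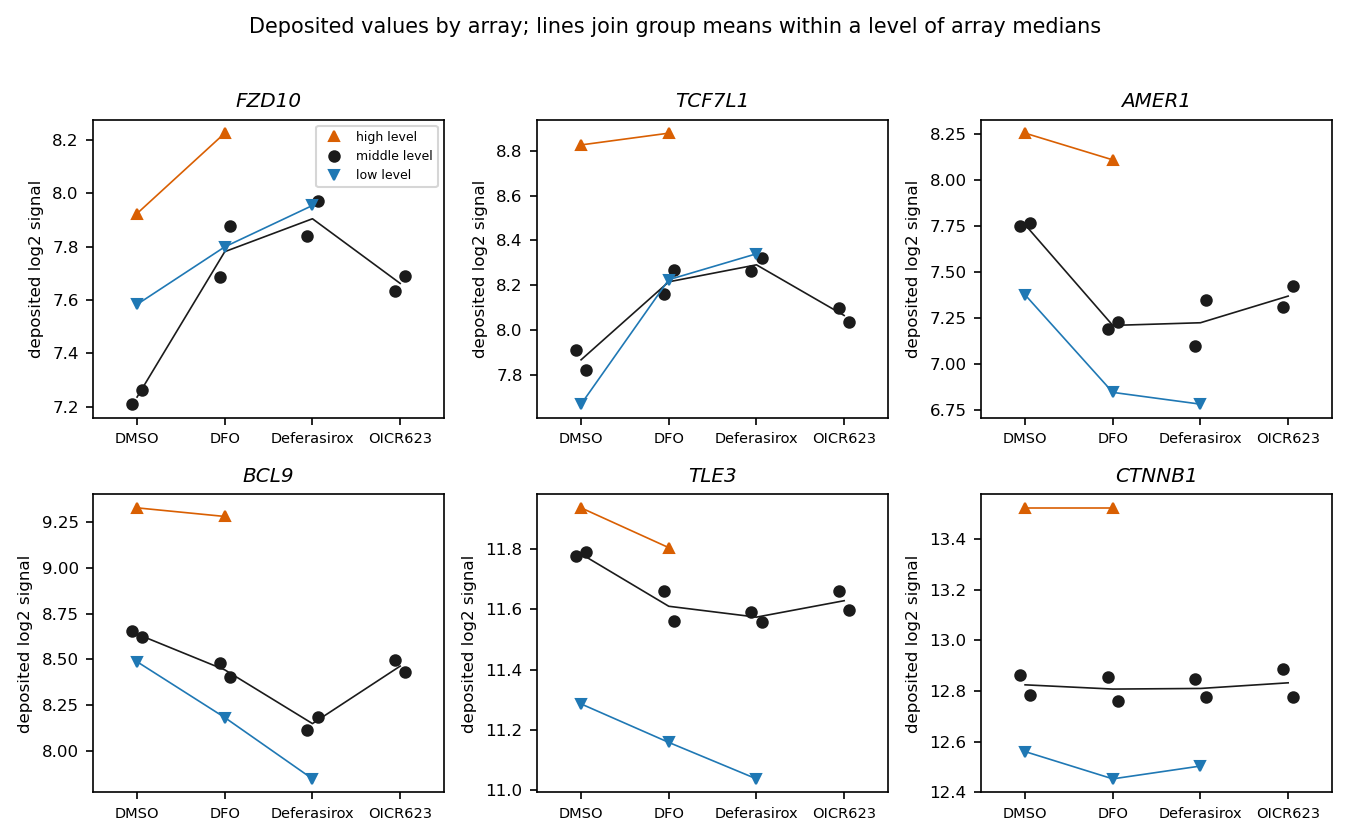
Deposited log2 signal (vertical axis) of called members and CTNNB1 in each array by group (horizontal axis), with a symbol per level of the array medians and lines joining group means within a level. FZD10 and TCF7L1 lie above DMSO and AMER1, BCL9 and TLE3 below it within each level, while the levels themselves lie further apart for several genes.

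**Figure D4:**
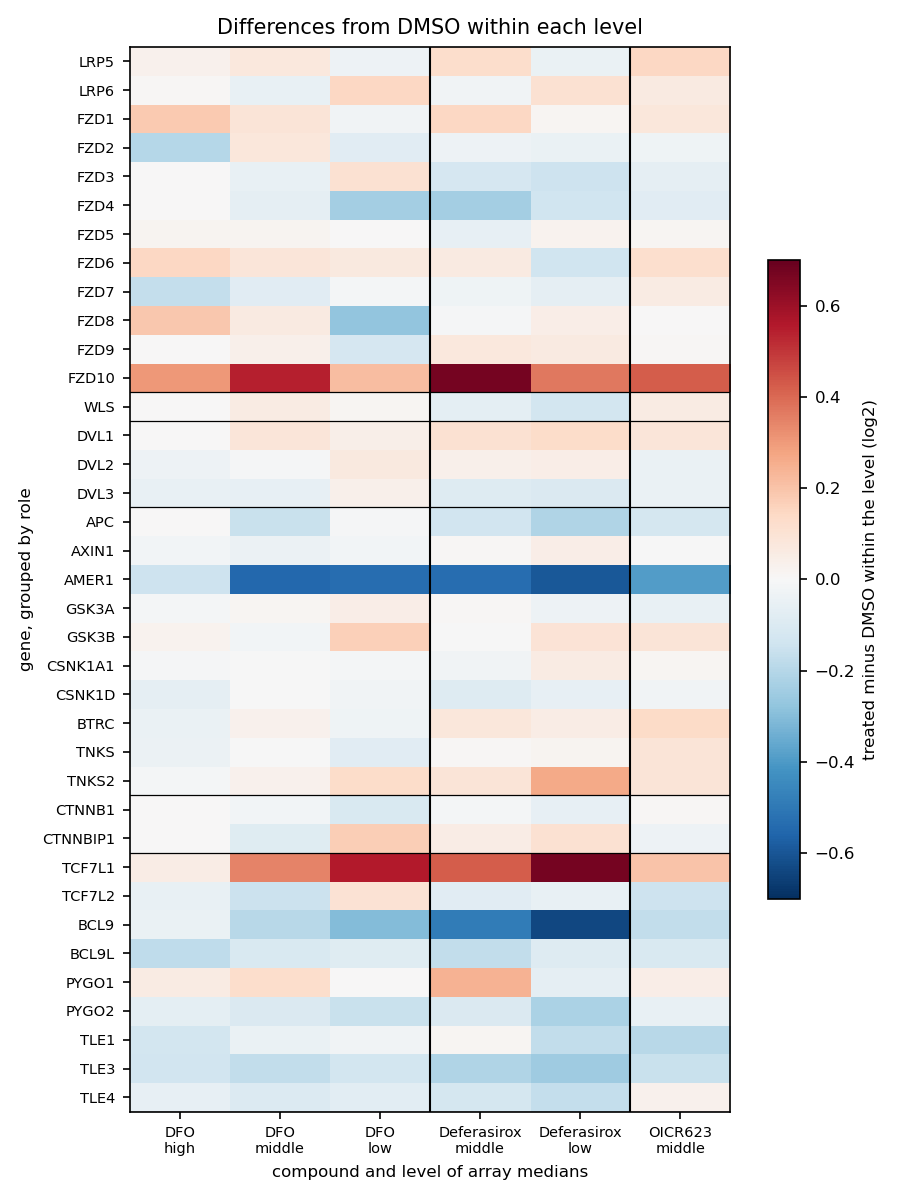
Treated minus DMSO on the log2 scale (colour) for each measured member (rows) within each level of array medians (columns; DFO has 3 levels, Deferasirox 2 and OICR623 1). AMER1 runs from -0.15 to -0.60 and CTNNB1 from -0.11 to 0.01; some members that were not called have differences within a level as large as those of TLE3.

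In the middle level, where each group has 2 arrays, treated and DMSO arrays did not overlap for 14 members under DFO (37.8%, beside 38.9% of all genes), for 19 under Deferasirox (51.4%, beside 41.7%) and for 13 under OICR623 (35.1%, beside 34.6%). Intervals limit what was detectable for the members that were not called. Of the 33 not called under DFO, the 95% interval lay within 0.25 of 0 on the log2 scale for 29 and within 0.5 for 33. Under Deferasirox this held for 23 and 32 of the 32 not called, and under OICR623 for 22 and 35 of 37. With 2 OICR623 arrays, all in the middle level, the median width of the interval to 1 side was 0.152 there, against 0.117 under DFO and 0.131 under Deferasirox.

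Between compounds, whose doses differ, limma called 0 members in each of the 3 pairs. The background was 0.0435% of all genes for Deferasirox against DFO, 0.168% for OICR623 against DFO and 0.0869% for OICR623 against Deferasirox. In that order 2, 2 and 4 members (5.41%, 5.41% and 10.8%) had an unadjusted limma p under 0.05. The shares of all genes were 10%, 5.67% and 8.54%. BCL9 gave -0.33 for Deferasirox against DFO (SE 0.05, 95% interval -0.45 to -0.21, adjusted p 0.0748) and 0.33 for OICR623 against Deferasirox (adjusted p 0.0941). For OICR623 against DFO it gave 0.00. BCL9 was called for Deferasirox against DFO when dim genes were left out and, as for OICR623 against Deferasirox, with an intensity trend in the variance.

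Other genes of the pathway were counted from lists set by function, some of whose genes appear in more than 1 list. Beside these counts, 4.6% of all genes were called under DFO, 5.84% under Deferasirox and 0.734% under OICR623. Of the 19 measured Wnt ligands 3 rose and 1 fell under DFO, 3 rose under Deferasirox and 0 were called under OICR623. WNT9A gave 0.40 under DFO, 0.42 under Deferasirox and, without passing, 0.34 under OICR623 (adjusted p 0.058; 0.0099 without DMSO 1 and DFO 1). WNT11, a ligand mostly tied to non-canonical signalling, rose by 0.24 and 0.36 under the chelators. WNT7A rose under Deferasirox (0.49), and WNT2 fell by 0.24 under DFO, a call lost without DMSO 1 and DFO 1 (adjusted p 0.053). WNT5A, named after its values were seen, rose by 0.22 under DFO. The secreted inhibitors held 15 measured genes, of which DKK1, which blocks LRP5 and LRP6, fell under DFO (-0.52) and DKK4 under Deferasirox (-0.43). Without DMSO 1 and DFO 1 TRABD2A also rose under both chelators (0.31 and 0.27) and FRZB under DFO (0.20), 2 genes named after their values were seen.

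Receptor turnover is set by R-spondins, LGR receptors and the ubiquitin ligases RNF43 and ZNRF3, which remove Frizzled from the membrane. Of the 11 measured genes of this list 2 fell under DFO (beside 4.6% of all genes called), and 2 fell and 1 rose under Deferasirox (5.84%). LGR5, a receptor for R-spondins and marker of crypt stem cells, fell by 0.34 under DFO and 0.67 under Deferasirox, and OICR623 gave -0.14 without passing. RNF43 fell by 0.21 and 0.29, and ZNRF3 gave 0.07, -0.03 and 0.07 and was not called. LGR6 rose under Deferasirox (0.36) and gave 0.02 under DFO and 0.03 under OICR623.

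In the cytoplasm, 25 further regulators of beta-catenin gave 1 call. AXIN2, a scaffold that is also a feedback target of the pathway, fell by 0.25 under Deferasirox (adjusted p 0.044), a call lost without DMSO 1 and DFO 1 (adjusted p 0.068). It gave -0.22 under DFO (adjusted p 0.056) and -0.24 under OICR623, neither called. Of 20 further nuclear factors 0 were called by limma under any compound. Of 16 genes of planar polarity and other non-canonical signalling VANGL1 fell under DFO (-0.26) and Deferasirox (-0.21). Of 12 junction partners of beta-catenin PKP2 fell under DFO (-0.21). Each of these lists held at most 1 call per compound. Of all genes 4.6% were called under DFO, 5.84% under Deferasirox and 0.734% under OICR623, so such counts are near the background.

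The feedback and target genes are given for comparison; how they moved was known from earlier work on these arrays and is no independent support. Of 29 measured, 2 rose and 9 fell under DFO, 2 rose and 10 fell under Deferasirox and 3 fell under OICR623. The shares called over all genes were 4.6%, 5.84% and 0.734%. The medians of the list were -0.07, -0.14 and -0.11. BAMBI fell by 1.02, 1.10 and 0.84, and JUN rose by 0.42 under DFO and 0.75 under Deferasirox. The same fit gave 3.08, 3.03 and 2.14 for DDIT4 and 1.69, 1.76 and 1.02 for VEGFA, both induced by hypoxia-inducible factors and called under each compound.

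**Figure D5:**
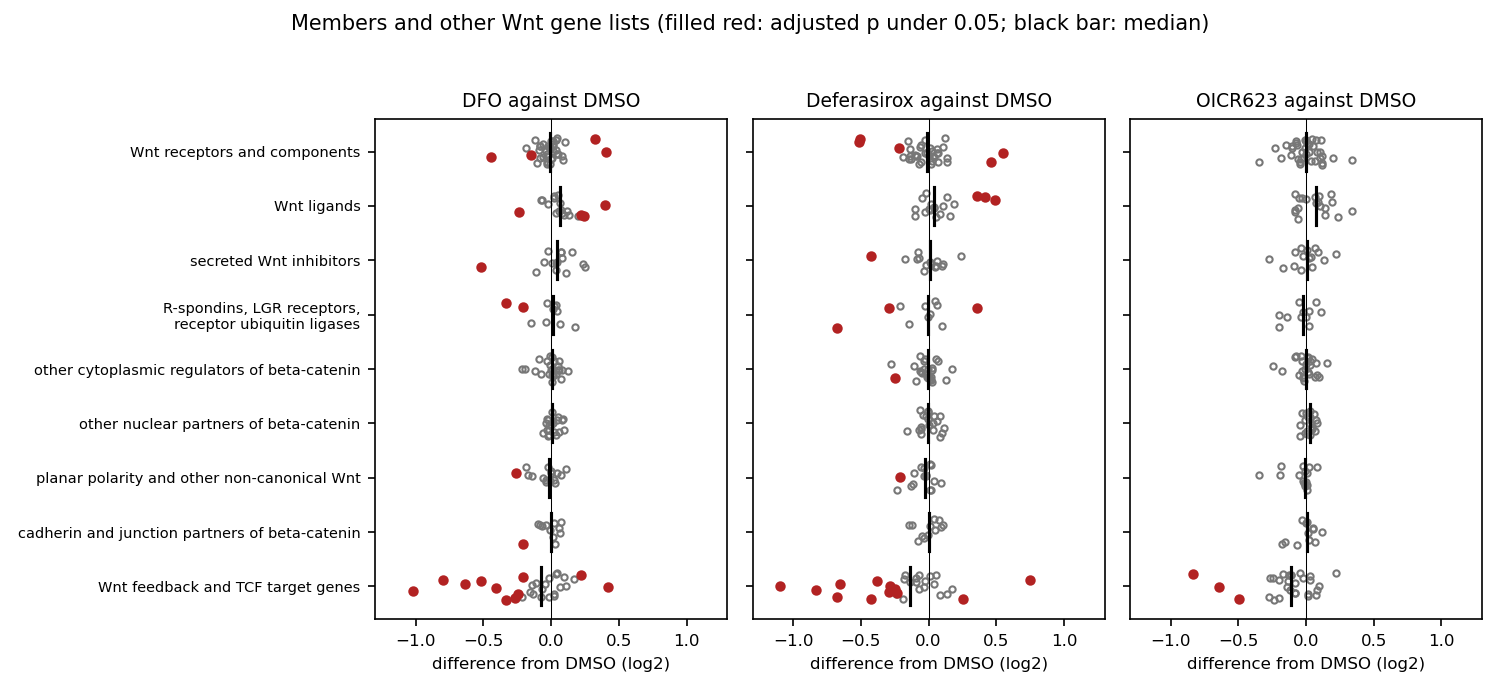
Difference from DMSO on the log2 scale (horizontal axis) of each gene in the members and the other Wnt gene lists (vertical axis) under each compound, filled red where the adjusted p was under 0.05, with a black bar at each list's median. The members' medians lie at -0.01, -0.01 and -0.00 and those of the feedback and target genes at -0.07, -0.14 and -0.11.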

How the data were processed

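For each of 13 arrays of SW480 RNA the authors deposited a log2 signal per transcript cluster. Per the submitters' processing notes GCRMA and limma were used; no version or step is given, so background correction, scaling and centring are known no further. The probe table named 19158 of the 32321 clusters by 1 symbol, 1388 by several and 11775 by none. Of these, 19128 matched RefSeq by Entrez identifier and 0 symbols were updated. For 637 genes with several clusters the one with the highest mean was kept, and 18404 genes entered the tests with no filter on dim genes. There are no detection calls, and precision is limited by how many arrays a group holds. Signals of different probes were not set against each other, so members were not ordered by level.

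Differences were fitted with limma 3.58.1 (R 4.3.3, statmod 1.5.0) with 1 mean per group and the level of the array median, separated at gaps over 0.05, as a block. The fit has 7 residual degrees of freedom. The members and lists were chosen with earlier results of these data known. Named from the members were those called against DMSO and CTNNB1, APC, AXIN1, GSK3B, LRP5, LRP6, FZD7, DVL2 and TCF7L2, from each other list up to 4 called genes by smallest adjusted p, and AXIN2, LGR5, RNF43, ZNRF3, DDIT4 and VEGFA; other members are given as examples of ranges. The DFO and DMSO arrays of 1 replicate number deviated together (correlations 0.945, 0.662, 0.738 and 0.788), so the numbers were taken as pairs. Each of these pairs also shares a level, and only numbers 2 and 3, both in the middle level, let number and level be told apart. The deviations are from the group mean over all levels, so a shared level enters these correlations. For number 1 the identical values enter too. The correlations alone therefore do not show pairing by number. For Deferasirox and OICR623 the correlations by number ran from -0.32 to 0.33, and no pairs were taken. Deferasirox 1, Deferasirox 3 and OICR623 1 lay in another level than the DMSO array of their number. These correlations therefore cannot tell whether arrays of different numbers were run together, which was not tested. In the order of the samples, Deferasirox 1 and OICR623 1 stand beside DMSO 2 and DFO 2, in the same level. Deferasirox 2 and OICR623 2 stand beside DMSO 3 and DFO 3, and Deferasirox 3 beside DMSO 4 and DFO 4. No fit took its blocks from this order. Alternatives changed the block, scaling, choice of row, dim filter, variance trend and arrays; leaving out the high or the low level and fitting the replicate number in the DFO and DMSO arrays alone were chosen after seeing the data. The fit was tested on simulated data.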

Additional observations from a re-analysis of the deposited data

Results flagged for a closer look

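In groups of 4 arrays, 16 of 70 checked groups of 35 named genes had 1 array apart from the others by Dixon's ratio (gap over range), where chance gives about 1 in 20. Of these, 15 lay in DMSO 1 or DFO 1, the arrays of the high level, and were higher than the rest. Among the members DMSO 1 stood apart for APC (0.836), AXIN1 (0.963) and FZD7 (0.973). DFO 1 did so for AXIN1 (0.928), LRP6 (0.847), FZD7 (0.904), TCF7L2 (0.85) and TCF7L1 (0.854). Among other genes DMSO 1 stood apart for VANGL1 (0.847), JUN (0.951) and KRT19 (0.865), and DFO 1 for LGR5 (0.885), ZNRF3 (0.848), VEGFA (0.891) and JUN (0.868). FGF20 was low in DMSO 4 (0.883). These ratios are of values before the level was taken into account.

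Between compounds, at different doses, the limma test of the difference was passed by DDIT4, at -0.933 for OICR623 against DFO, and by JUN, at -0.528 for OICR623 against Deferasirox. Neither is a member.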

How the results depend on the processing

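The values counted here are members called per comparison with DMSO. Leaving out 1 array at a time gave 2 to 4 under DFO, 4 to 5 under Deferasirox, 0 to 1 under OICR623 (AMER1 without DMSO 1 or DFO 1) and 0 between compounds. Of all genes, those fits called 494 to 846 under DFO and 546 to 1066 under Deferasirox. Leaving out DMSO 1, DFO 1 or the whole high level is the same fit, since an array alone in its level does not enter the differences. That fit called 0.94% of all genes under OICR623 and is counted each time in the numbers given here. Without a level block the counts were 0 under DFO and 0 under Deferasirox, beside 0.245% and 0.234% of all genes. The median of all genes then shifted to -0.15 under Deferasirox and -0.11 under OICR623. With arrays centred on their median in place of the block the counts were 0 and 2 (BCL9 and FZD10), beside 0.837% and 0.924%. A replicate block in place of the level gave 0 and 1 (BCL9), beside 0.424% and 0.69% of all genes. Both blocks together gave 2 (AMER1 and FZD10) and 2 (BCL9 and FZD10), beside 4.18% and 2.17%. Both fits set Deferasirox 1 and 3 in a block with DMSO arrays of other levels. The replicate block in the DFO and DMSO arrays alone gave 2, AMER1 and FZD10 (adjusted p 0.039 each), beside 3.36% of all genes. It ended the calls of TCF7L1 (0.11) and TLE3 (0.091). Fits on the 2 groups alone or on the middle level alone gave 2 under DFO, beside 3.25% and 1.49% of all genes. Under Deferasirox these 2 fits lost the call of TLE3 and kept those of FZD10, AMER1, TCF7L1 and BCL9. Without the low level 1 was called under DFO (FZD10) and 2 under Deferasirox (BCL9 and FZD10), beside 1.85% and 2.02%. Under OICR623 1 was called with an intensity trend (TLE3) and 1 without the high level (AMER1), beside 1.84% and 0.94% of all genes. BCL9 was the 1 call for Deferasirox against DFO without dim genes or with a trend, and for OICR623 against Deferasirox with a trend. Of the named members' values under all alternatives, 65 lost their call, 9 gained one and 0 changed sign while called. The other 1032 stayed as they were, among them values that were never called. Under DFO the call of TLE3 held in 0 of 13 fits without 1 array and in 3 of 14 other alternatives. That of TCF7L1 held in 8 of 13 and 6 of 14. The causes were not tested.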

Other observations

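In the epithelial marker list, 2 of 10 measured genes were called under DFO and under Deferasirox, beside 4.6% and 5.84% of all genes. CDX2, a transcription factor of the intestinal lineage, was 9.26 and 9.41 in DMSO, 8.83 and 8.83 in DFO, 8.36 and 8.70 in Deferasirox and 8.76 and 8.99 in OICR623 in the middle level, with every treated array below DMSO. It fell by 0.49 under DFO and 0.77 under Deferasirox, and OICR623 gave -0.44 without passing (limma adjusted p 0.134). KRT19, a keratin of simple epithelia, was 10.18 and 10.23 in DMSO and 10.50 to 10.75 in the treated arrays of that level. It rose by 0.35 under DFO and 0.33 under Deferasirox, and OICR623 gave 0.28 without passing.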
